A study of Mus musculus with 61 samples.

Results

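The mouse mitochondrial genome codes for a small set of respiratory chain proteins, and 10 of their genes are described here across the livers of 8 inbred strains. They are mt-Nd1, mt-Nd2, mt-Nd4, mt-Nd5 and mt-Nd6 (subunits of complex I), mt-Cytb (complex III), mt-Co1, mt-Co2 and mt-Co3 (complex IV) and mt-Atp6 (complex V). They were chosen by name from the count table, 10 of its 18754 genes, and all 10 passed the filter on low counts. Their values are given as CPM, counts per M reads of a library, and as shares of the reads on the 15 rows of the table whose names begin with mt-.

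The mice came from the inbred founders of Diversity Outbred (DO) mice, a stock in which the alleles of 8 strains are mixed. There were 8 libraries each of NOD, NZO, PWK, WSB and strain-129, whose label is that number alone, 7 each of B6 and Cast, and 6 of AJ, counting those with a column in the table. All had been fed a high-fat, high-sugar diet, so no group on another diet enters any comparison. No sex, age or genotype beyond the strain was given in the labels. Xist, an RNA of female cells, was at most 1.85 CPM in the lowest library of each strain and at least 864.752 CPM in the highest. Each strain thus appears to hold libraries of both sexes, and a fit with Xist as a covariate is among the alternatives. There was no control strain, and each strain was set against the mean of the other 7. Nothing in the labels says that each library came from a separate mouse, so the p-values measure the spread between libraries, which may be partly technical. RNA came from whole liver, in which fewer cells of a type and less RNA per cell cannot be told apart.

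Respiratory complexes I, III and IV pass electrons from nutrients to oxygen and pump protons across the inner mitochondrial membrane, and complex V uses the returning protons to make ATP. Complexes I, III, IV and V combine subunits made inside the mitochondrion with many more that are coded in the nucleus and imported. The mitochondrial genes are transcribed as long RNAs that are cut into single messages, most of them from 1 strand and mt-Nd6 from the other, and RNA stability then sets much of the level of each. The nuclear genome also holds old insertions of mitochondrial DNA, annotated as pseudogenes, and reads of a mitochondrial message can be assigned to such a copy.

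The sequences of mt-Co2 and of its nuclear copies are shown because the values of mt-Co2 changed when the rows of the copies were added. The bases here and below are those of the reference build, and the sequences of the strains themselves were not compared. mt-Co2 lies at MT:7013-7696 in build GRCm38. Gm28661, on the minus strand at chr1:24614885-24615565, was identical to mt-Co2 over the 681 bases it spans, and Gm13341, on the minus strand at chr2:22587291-22587962, matched it at 95.9% of 684 aligned positions. The first 120 bases of each, taken from the GENCODE M21 transcripts, are given below 5′ to 3′, for mt-Co2 at MT:7013-7132 (plus strand), for Gm28661 at chr1:24615446-24615565 and for Gm13341 at chr2:22587843-22587962. Capitals mark the bases of a copy that differ from mt-Co2, of which there were 2 in Gm13341 and 0 in Gm28661 over this stretch.
mt-Co2: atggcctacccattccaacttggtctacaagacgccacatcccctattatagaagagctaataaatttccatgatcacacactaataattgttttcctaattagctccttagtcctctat
Gm28661: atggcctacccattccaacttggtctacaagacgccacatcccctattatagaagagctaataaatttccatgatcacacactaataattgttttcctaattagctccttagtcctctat
Gm13341: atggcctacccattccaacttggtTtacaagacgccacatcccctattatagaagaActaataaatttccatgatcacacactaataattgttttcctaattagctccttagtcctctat

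mt-Atp6, at MT:7927-8607, had a nuclear copy of the same kind, Gm10925, at chr1:24613974-24614651 on the minus strand and identical over 678 bases. The first 60 bases are printed for both because no base of the 678 tells them apart in the reference build. They lie at MT:7927-7986 for mt-Atp6 and at chr1:24614592-24614651 for Gm10925.
mt-Atp6: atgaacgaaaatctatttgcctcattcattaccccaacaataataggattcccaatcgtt
Gm10925: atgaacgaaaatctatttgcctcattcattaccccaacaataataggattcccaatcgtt

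mt-Co3 had an identical copy over 783 bases (Gm28437) and mt-Nd4 an identical copy over 876 bases (Gm28439), both on chromosome 1. mt-Nd2 matched Gm13339 on chromosome 2 at 96.7% over 510 bases. Copies of mt-Co1 and mt-Nd5 took under 0.1% of the reads of gene and copies together in every strain. At the limit used (95% identity over 90 bases) no copy was found for mt-Nd1, mt-Nd6 or mt-Cytb. The deposited values of mt-Co1, mt-Co2, mt-Co3 and mt-Atp6 were not whole numbers in 60 of 60 libraries, those of mt-Nd1 and mt-Cytb were whole in every library. Beside the counts as deposited, the main results are therefore also given with the reads of the nuclear copies added to their gene, a setting that was chosen after the values were seen.

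Among all genes tested, 89.8% differed among the 8 strains in level, and 9 of the 10 genes did (edgeR's quasi-likelihood test with Benjamini-Hochberg adjustment over 16165 genes, threshold 0.05), a share near that of all genes. With the copies added, 9 of 10 differed again, against 89.9% of all genes. mt-Co1, the catalytic subunit of complex IV, did not pass in either setting (adjusted p = 0.34, and 0.322 with the copies). Cast had the highest mean CPM for 8 of the 10 genes, and for 9 with the copies added. AJ had the lowest mean for 4 genes (mt-Nd5, mt-Nd6, mt-Cytb and mt-Co3), NZO for 2 (mt-Nd2 and mt-Atp6), PWK for 2 (mt-Nd4 and mt-Co1), WSB for mt-Nd1 and Cast for mt-Co2. These places are by CPM per library total. Under the TMM scaling used for fold changes, mt-Nd1 in PWK over WSB was -0.14 on the log2 scale (edgeR adjusted p = 0.24).

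**Figure D1:**
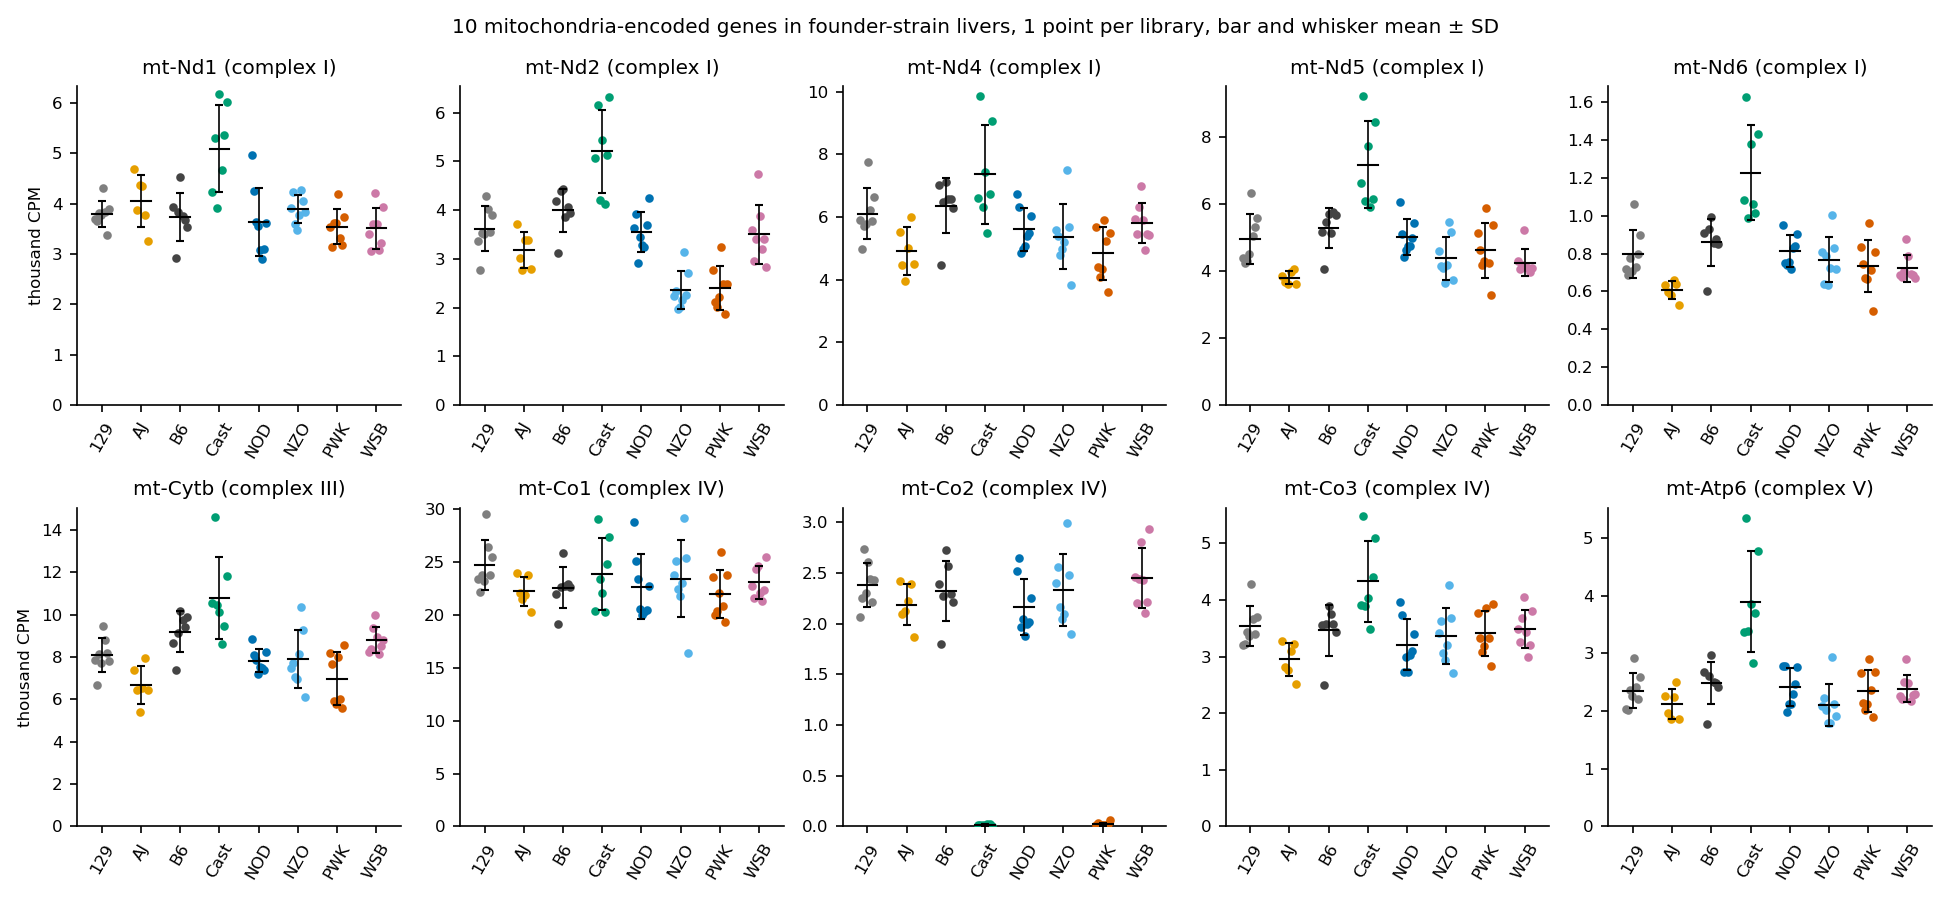
CPM (in units of 1000 CPM, linear axis from 0) of each of the 10 genes by strain. Points are libraries, and bar and whiskers are the mean ± SD. Cast lies highest for 8 genes, NZO and PWK lie low for mt-Nd2, and mt-Co2 is near 0 in Cast and PWK, where no library exceeds 59.996 CPM.

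Within a strain, the SD was 5.29% to 22.4% of the mean over the genes other than mt-Co2 (median 13.2%, 72 groups). Levels of different genes are compared per kilobase of gene (CPM per kb of strain means). mt-Co1 was the most abundant, at 14230 to 15992 CPM per kb across strains, followed by mt-Cytb at 5846 to 9437 CPM per kb. The lowest per length was mt-Nd6, at 1171 to 2365 CPM per kb, apart from mt-Co2 in Cast and PWK. After the copies were added, mt-Co2 (6440 to 8951 CPM per kb) and mt-Co3 (7588 to 10925 CPM per kb) were in the range of mt-Cytb or above it. So was mt-Atp6 with its copy, at 6533 to 8551 CPM per kb. The ratio of the highest to the lowest strain mean of CPM was 2.21 for mt-Nd2, 2.02 for mt-Nd6, 1.89 for mt-Nd5 and 1.12 for mt-Co1, and it lay between 1.45 and 1.85 for mt-Nd1, mt-Nd4, mt-Cytb, mt-Co3 and mt-Atp6. For mt-Atp6 with its copy the ratio was 1.31.

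Of the 5 complex I genes, all 5 were higher in Cast than in the mean of the other 7 strains, 3 were lower in PWK, 2 in AJ and 1 in NZO. mt-Nd2, a core membrane subunit of the proton pump (MT:3914-4951), differed most among them in the ratio of strain means. Its lowest, median and highest values were 4119, 5136 and 6327 CPM in Cast, 1967, 2247 and 3135 CPM in NZO, and 1877, 2344 and 3242 CPM in PWK. The means of the other 5 strains lay between 3180 and 3999 CPM. All Cast libraries were thus above all NZO and PWK libraries, and the NZO and PWK ranges overlapped each other and the range of AJ. Against the mean of the other 7 strains, mt-Nd2 was higher in Cast by 0.67 ± 0.09 on the log2 scale (SE, edgeR adjusted p = 4.88e-09, 7 of 7 libraries). It was lower in NZO, with a log2 fold change of -0.53 ± 0.09 (edgeR adjusted p = 4.4e-06, 8 of 8 libraries). In PWK the log2 fold change was -0.61 ± 0.09 (edgeR adjusted p = 2.24e-07, 8 of 8 libraries).

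PWK was the strain in which the nuclear copy of mt-Nd2 held reads. Gm13339 averaged 375 ± 129.1 CPM in PWK (SD, n = 8), and at most 0.592 CPM in any other strain. In PWK 86.7% of the reads of gene and copy were on the mt-Nd2 row. With them added, mt-Nd2 averaged 2777 ± 545 CPM in PWK (SD, n = 8), and its log2 fold change was -0.39 ± 0.09 (edgeR adjusted p = 0.000418, 7 of 8 libraries). In NZO, where over 99.9% of the reads were on the mt-Nd2 row, the value with the copy added was -0.57 ± 0.09 (edgeR adjusted p = 1.43e-06).

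mt-Nd5 and mt-Nd6 are both membrane subunits of complex I whose genes lie on opposite strands and overlap at their ends (MT:11742-13565 and MT:13552-14070). The strand used in counting is not given in the sources used here. RNA from the strand of mt-Nd5 across MT:13552-14070 may therefore have been counted as mt-Nd6. Whether the mt-Nd6 values are independent of those of mt-Nd5 was not tested. mt-Nd5 had 5920, 6626 and 9226 CPM as its lowest, median and highest value in Cast and 3608, 3760 and 4073 CPM in AJ, and strain means of 4251 to 5278 CPM in the other 6. mt-Nd6 had 990.5, 1081 and 1630 CPM in Cast and 529, 618 and 661 CPM in AJ. The Cast and AJ ranges did not overlap for either gene.

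The Cast log2 fold change was 0.59 ± 0.09 for mt-Nd5 (edgeR adjusted p = 7.3e-08) and 0.65 ± 0.09 for mt-Nd6 (edgeR adjusted p = 1.25e-08), each higher in 7 of 7 libraries. In AJ it was -0.39 ± 0.10 for mt-Nd5 (edgeR adjusted p = 0.00335) and -0.44 ± 0.11 for mt-Nd6 (edgeR adjusted p = 0.0012), each lower in 6 of 6 libraries. Adding the copies moved none of these 4 values by more than 0.02.

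mt-Nd1, which helps form the quinone channel of complex I, had 3911, 5293 and 6172 CPM as lowest, median and highest value in Cast, and strain means of 3508 (WSB) to 4049 (AJ) CPM elsewhere. Its range in Cast overlapped that of every other strain. On the log2 scale the fold change was 0.40 ± 0.08 in Cast (edgeR adjusted p = 1.06e-05) and -0.19 ± 0.07 in PWK (edgeR adjusted p = 0.0313). The PWK call ended without library 1, 2, 6 or 7 of PWK (adjusted p up to 0.102) and without TMM scaling (adjusted p = 0.0991). mt-Nd4, another proton-pumping subunit, had 5477, 6727 and 9871 CPM in Cast and 3603, 4829 and 5918 CPM in PWK, ranges that overlapped. Its log2 fold change was 0.36 ± 0.10 in Cast (edgeR adjusted p = 0.00169, 6 of 7 libraries) and -0.33 ± 0.10 in PWK (edgeR adjusted p = 0.00581, 7 of 8 libraries).

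mt-Cytb, the only mitochondria-encoded subunit of complex III, was higher in Cast and lower in AJ and PWK. The lowest, median and highest values were 8607, 10444 and 14600 CPM in Cast, 5383, 6490 and 7946 CPM in AJ, and 5603, 6837 and 8582 CPM in PWK. Every Cast library was above every AJ and PWK library, and AJ and PWK overlapped. The log2 fold change was 0.41 ± 0.09 in Cast (edgeR adjusted p = 7.81e-05), -0.32 ± 0.10 in AJ (edgeR adjusted p = 0.0141) and -0.31 ± 0.09 in PWK (edgeR adjusted p = 0.00293). The AJ call ended without AJ library 3 (adjusted p = 0.0673).

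In WSB, mt-Cytb had 8146, 8662 and 9990 CPM, with a log2 fold change of 0.25 ± 0.08 (edgeR adjusted p = 0.0119, 8 of 8 libraries). That call depended on the scaling: it was 0.12 with library totals in place of TMM (adjusted p = 0.214) and 0.08 with totals that left out Rn18s-rs5 and the mt- rows (adjusted p = 0.431). These scalings moved the median log2 fold change of all genes in WSB by -0.14 and -0.18. Under the scaling to totals without Rn18s-rs5 and mt- rows, mt-Nd1, mt-Nd5 and mt-Nd6 were instead lower in WSB, with log2 fold changes of -0.21, -0.26 and -0.21 (edgeR adjusted p = 0.0148, 0.00681 and 0.0351). mt-Nd5 also passed as lower there with library totals and no TMM (-0.22, edgeR adjusted p = 0.0224).

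The complex IV gene mt-Co1 had strain means between 21986 CPM (PWK) and 24707 CPM (strain-129). The highest and lowest strain differed by 0.16 ± 0.11 on the log2 scale (strain-129 over PWK, edgeR adjusted p = 0.232). mt-Co3, also a core subunit of complex IV, had 3485, 4038 and 5482 CPM as lowest, median and highest value in Cast and 2522, 2956 and 3280 CPM in AJ, ranges that did not overlap. On the log2 scale the fold change in Cast was 0.33 ± 0.08 (edgeR adjusted p = 0.000759, 7 of 7 libraries). Between 49.2% and 50.5% of the reads of mt-Co3 and its copy were on the mt-Co3 row in each strain, and the Cast value with the copy added was 0.33 ± 0.08 as well (edgeR adjusted p = 0.000692).

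mt-Co2 codes for the complex IV subunit that takes electrons from cytochrome c, and its row was nearly empty in Cast and PWK. The lowest, median and highest values were 6.81, 11.6 and 24.6 CPM in Cast and 8.04, 13.8 and 59.996 CPM in PWK. The other 6 strains had means of 2163 (NOD) to 2449 (WSB) CPM, and no library of theirs was below 1797 CPM. The log2 fold change was -6.48 ± 0.31 in Cast (edgeR adjusted p = 1.48e-25) and -5.71 ± 0.28 in PWK (edgeR adjusted p = 3.48e-25). Because both strains pull the mean of the others down on the log scale, each of the other 6 strains was called higher, with log2 fold changes of 1.89 (NOD) to 2.25 (WSB).

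The rows of its copies were higher in these strains. Gm28661 had 3732, 4472 and 5305 CPM as lowest, median and highest value in Cast and 3497, 4487 and 5068 CPM in PWK, and means of 3022 to 3273 CPM in the other 6 strains. Gm13341 had 809, 1568 and 2432 CPM in Cast, and a mean of at most 1.19 CPM in the other 7 strains. The mt-Co2 row held 0.235% of the reads of mt-Co2 and both copies in Cast and 0.489% in PWK, and 41.5% to 43.1% in the other strains.

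With the copies added, mt-Co2 averaged 6123 ± 1162 CPM in Cast (SD, n = 7), 4405 ± 518 CPM in PWK (SD, n = 8), and 5185 to 5692 CPM in the other 6 strains. The Cast range, 4777 to 7745 CPM, then overlapped that of every other strain. On the log2 scale the fold change was 0.18 ± 0.09 in Cast (edgeR adjusted p = 0.0883), the opposite sign to the row as deposited. In PWK it was -0.37 ± 0.09 (edgeR adjusted p = 0.000452, 8 of 8 libraries). In WSB it was 0.23 ± 0.08 (edgeR adjusted p = 0.0247), a call that ended without WSB library 1, 4 or 5 (adjusted p up to 0.0752).

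**Figure D2:**
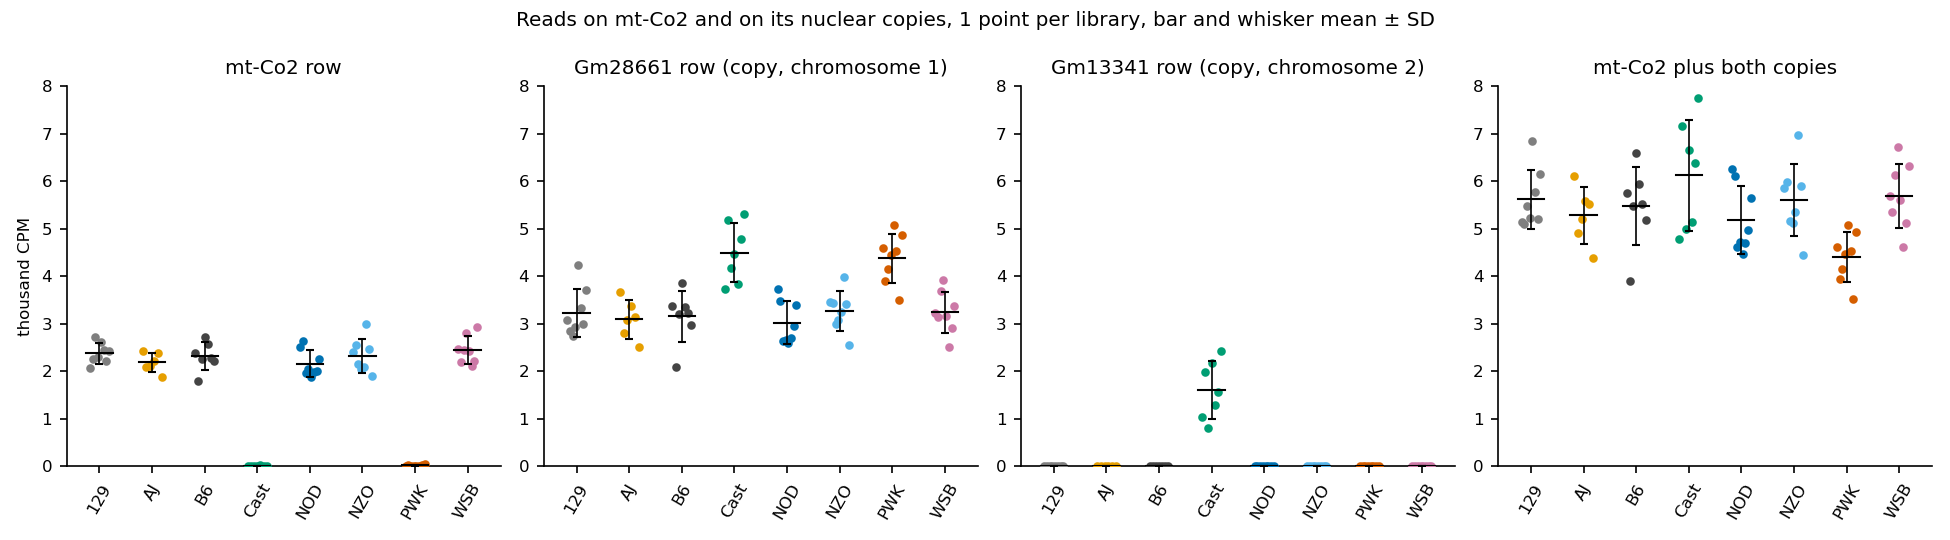
CPM (in units of 1000 CPM, linear axis from 0) by strain on the mt-Co2 row, on its copies Gm28661 and Gm13341 and on all 3 together. Points are libraries, and bar and whiskers are the mean ± SD. In Cast and PWK the mt-Co2 row is near 0 and Gm28661 is raised, Gm13341 holds reads in Cast (809 to 2432 CPM), and the sum in Cast (4777 to 7745 CPM) overlaps that of every other strain.

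mt-Atp6, the proton channel subunit of complex V, was highest in Cast as deposited, with 2843, 3698 and 5351 CPM as lowest, median and highest value, and strain means of 2110 (NZO) to 2493 (B6) CPM elsewhere. The log2 fold change in Cast was 0.71 ± 0.09 (edgeR adjusted p = 3.5e-09, 7 of 7 libraries). Its copy Gm10925 was instead lowest in Cast, averaging 1923 ± 227 CPM there (SD, n = 7), and 2338 to 2924 CPM in the other strains. In Cast 66.6 ± 2.64% of the reads of gene and copy were on the mt-Atp6 row (SD, n = 7), and 45.0% to 50.7% in the other strains.

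With the copy added, mt-Atp6 averaged 5823 ± 1080 CPM in Cast (SD, n = 7) and 4449 to 5315 CPM elsewhere. On the log2 scale the fold change in Cast was then 0.23 ± 0.09 (edgeR adjusted p = 0.0328, 5 of 7 libraries), about the same under TMM as in WSB, at 0.25 ± 0.09 (edgeR adjusted p = 0.0185, 7 of 8 libraries). The scalings that moved the median log2 fold change of all genes in WSB by -0.14 and -0.18 are not given with the copies added. Whether the WSB calls of mt-Atp6 and mt-Co2 with their copies hold under them was not tested. The Cast call ended without any 1 of 11 libraries, among them Cast 2, 7 and 8 (adjusted p up to 0.197), and the WSB call without WSB 4 or 5 (adjusted p up to 0.0601).

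**Figure D3:**
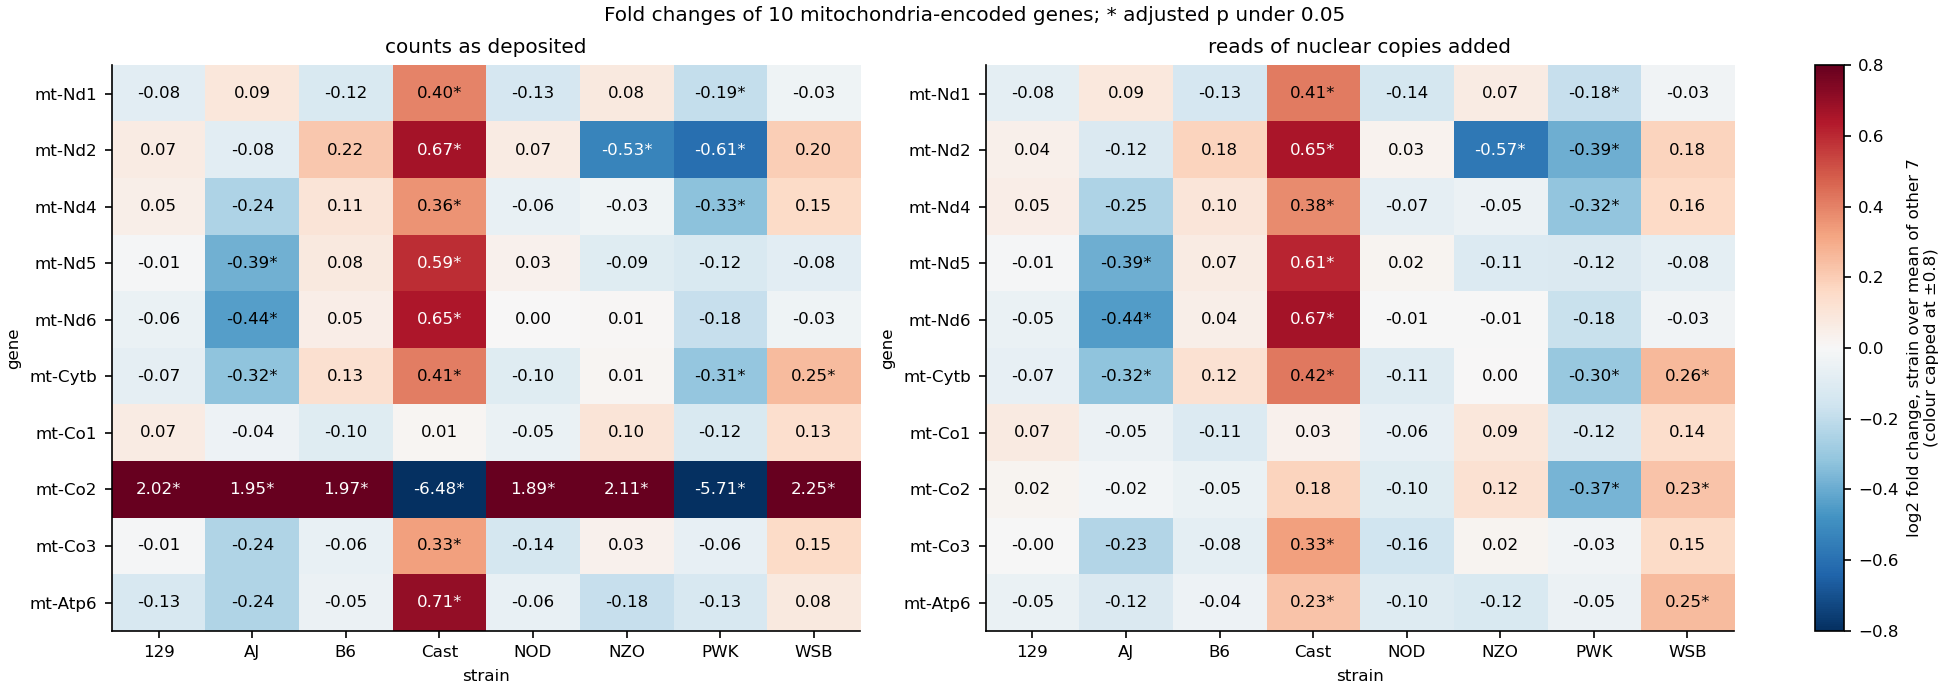
Log2 fold change of each gene (rows) in each strain over the mean of the other 7 (columns), for the counts as deposited (left) and with the reads of nuclear copies added (right). An asterisk marks an adjusted p under 0.05, and the colour scale is capped at ±0.8. The Cast column is positive for 9 genes as deposited and for 10 with the copies, and the mt-Co2 row changes most between the panels.

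Read over the 10 genes, Cast had 8 called higher and 1 (mt-Co2) lower, against 30.8% and 28.8% of all genes tested. After the copies were added, Cast had 8 higher and 0 lower, against 32.1% and 27.7% of all genes. The median log2 fold change of the 10 genes in Cast was 0.40, and those of all genes tested lay between -0.02 and 0.02 over the 8 strains. PWK had 0 higher and 5 lower, against 22.5% and 22.7% of all genes, and the same counts with the copies, against 23.1% and 22% of all genes.

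AJ had 1 higher (mt-Co2) and 3 lower, against 13.1% and 11% of all genes, and 0 higher and 3 lower with the copies, against 12.7% and 11.2%. NZO had 1 higher (mt-Co2) and 1 lower, against 26.7% and 19.5% of all genes, and 0 higher and 1 lower with the copies, against 25.5% and 20.7%. WSB had 2 higher and 0 lower, against 22.6% and 22.4% of all genes, and 3 higher and 0 lower with the copies, against 23% and 21.9%.

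In strain-129, B6 and NOD 1 gene was called, mt-Co2, as higher, against 13.7%, 19.4% and 16.7% of all genes. With the copies added, 0 of 10 passed in these 3 strains by edgeR, and 0 had an unadjusted p under 0.05, against 14%, 18.9% and 16.1% of all genes higher and 10.7%, 15.6% and 12.2% lower. The B6 count changed when single libraries were left out: without B6 library 2, mt-Nd2 was also called as higher in B6 (0.26 ± 0.10 on the log2 scale, edgeR adjusted p = 0.0311). In that library 5.40% of reads were on mt- rows, against 6.98% to 7.61% in the other 6 B6 libraries. mt-Nd2 was called higher in B6 as well when library totals were used in place of TMM (0.28, edgeR adjusted p = 0.0107). The B6 count was 2 also without Cast 8, NZO 6 or PWK 5.

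For each gene the 8 strains were put in order of mean CPM of the rows as deposited, and neighbours in that order were tested. Of 70 neighbouring pairs, 11 were called by edgeR, against 36.8% of all genes over the same pairs of strains. The step from Cast to the next strain was called for mt-Nd1 (over AJ, 0.27), mt-Nd2 (over B6, 0.39), mt-Nd5 (over B6, 0.45), mt-Nd6 (over B6, 0.52), mt-Co3 (over strain-129, 0.30) and mt-Atp6 (over B6, 0.66), all on the log2 scale. With the copies added, the mt-Atp6 step was 0.23 and was not called (edgeR adjusted p = 0.113). Below Cast, neighbours mostly did not differ beyond their spread. The exceptions other than mt-Co2 were mt-Nd2 (AJ over PWK, 0.46), mt-Nd6 (WSB over AJ, 0.35) and mt-Cytb (WSB over strain-129, 0.28, edgeR adjusted p = 0.0474). The mt-Nd2 step of AJ over PWK fell to 0.24 with the copies added and was then not called (edgeR adjusted p = 0.132). Highest and lowest strain differed for 9 of 10 genes, against 50.4% of all genes over the same pairs. With the copies added and the same order kept, the counts were 9 of 70 and 8 of 10, against 36.9% and 50.7%. The order of each gene was taken from the values that were then tested, and all genes were not ordered by their own values. That lowers the count for neighbours and raises the count for extremes, so neither can be read against its share. For gene and copies together Cast was the highest and PWK the lowest strain for mt-Co2, and their difference was -0.48 on the log2 scale (PWK over Cast, edgeR adjusted p = 0.000575).

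Cast was also set against each other strain alone. In these 7 pairs, 5 to 8 of the 10 genes were higher in Cast and 1 was lower, where 47% to 59% of all genes differed. After adding the copies, 4 to 8 were higher and 0 lower, where 47.1% to 59.4% of all genes differed. PWK with the copies added had 0 genes higher than any other strain and 1 to 8 lower, where 38% to 50.2% of all genes differed. The pairs of Cast all share the Cast libraries.

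Each gene was also measured as its share of all mt- reads. Shares of 1 whole are not independent of each other: mt-Co2 took 0.0187% of mt- reads in Cast, 0.0382% in PWK and 3.35% to 3.78% in the other 6 strains, so that the other genes divide a larger remainder in Cast and PWK. Among the strains, 9 of the 10 genes differed in share, against 87.9% of all genes, with mt-Nd4 the exception (edgeR adjusted p = 0.0849). With the copies added to gene and whole, 10 of 10 differed, against 84.9%. In this fit nearly all genes are divided by a whole that does not hold them. Their median log2 fold change was -0.20 in Cast and 0.30 in PWK for the rows as deposited. The 10 genes are parts of the whole, so the share counts below cannot be read as more or fewer than those of all genes.

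In Cast, 8 genes took a higher and 2 a lower share, against 14.9% and 38.3% of all genes. mt-Atp6 took 5.09 ± 0.446% of mt- reads in Cast (SD, n = 7), and 3.29% to 4.23% in the other strains. The log2 fold change of its share was 0.48 ± 0.05 (edgeR adjusted p = 1.14e-11) for the rows as deposited and -0.02 with the copies added (edgeR adjusted p = 0.71). mt-Nd2, mt-Nd5 and mt-Nd6 kept a higher share in Cast in both settings. mt-Nd5 took 9.42 ± 0.781% of mt- reads in Cast (SD, n = 7), and 6.41% to 8.30% elsewhere, with a log2 fold change of its share of 0.38 (edgeR adjusted p = 3.62e-09), and 0.36 with the copies (edgeR adjusted p = 1.07e-08). mt-Nd6 took 1.61 ± 0.186% in Cast (SD, n = 7), and 1.02% to 1.32% elsewhere.

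mt-Co1 took the largest share in every strain, and the lowest of them in Cast, 31.5 ± 1.47% (SD, n = 7), against 32.7% to 39.8% elsewhere. Its log2 fold change of share in Cast was -0.20 ± 0.05 (edgeR adjusted p = 0.000421), and -0.22 with the copies (edgeR adjusted p = 0.000159). The log2 fold change of its level in Cast was 0.01 ± 0.09 (edgeR adjusted p = 0.896). The smaller share gains of mt-Nd1, mt-Nd4 and mt-Co3 in Cast (0.19, 0.14 and 0.11) each ended without 1 library: Cast 5 for mt-Nd1, Cast 1, 2, 5 or 8 for mt-Nd4 and Cast 1, 2, 7 or 8 for mt-Co3. After the copies were added, 6 genes took a higher and 1 a lower share in Cast, against 14.3% and 39.2% of all genes.

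NZO differed mainly in mt-Nd2, which took 3.71 ± 0.664% of mt- reads there (SD, n = 8), against 4.32% in PWK and 5.35% to 6.85% in the other 6 strains. The log2 fold change of share was -0.56 ± 0.07 (edgeR adjusted p = 8.6e-10, 8 of 8 libraries) and -0.58 with the copies. NZO had 1 gene higher in share (mt-Co2) and 3 lower, against 21.3% and 16.3% of all genes. mt-Nd5 and mt-Atp6 were the other 2 lower ones, with log2 fold changes of -0.15 and -0.24 (edgeR adjusted p = 0.0125 and 0.000172). With the copies added NZO had 0 higher and 3 lower, against 22% and 15% of all genes, and the mt-Nd5 call then ended without NZO 2, 3, 4 or 6.

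PWK had 4 genes with a higher and 2 with a lower share, against 49.7% and 8.99% of all genes, and 2 and 2 with the copies, against 39.6% and 10.4%. mt-Co3 took 6.16 ± 0.145% of mt- reads in PWK (SD, n = 8), and 4.96% to 5.69% elsewhere, a log2 fold change of share of 0.24 ± 0.04 (edgeR adjusted p = 2.27e-06). With the copies it was 0.19 (edgeR adjusted p = 8.6e-05). The share of mt-Nd2 in PWK had a log2 fold change of -0.31 (edgeR adjusted p = 7.13e-05), and of -0.18 with the copies (edgeR adjusted p = 0.0184), a call that then ended without PWK 2 (adjusted p = 0.0559).

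AJ had 2 genes higher and 3 lower in share, against 16.3% and 5.09% of all genes. mt-Nd5 took 6.41 ± 0.229% in AJ (SD, n = 6) and mt-Nd6 1.02 ± 0.0414%, the lowest mean of each, with log2 fold changes of share of -0.26 and -0.31 (edgeR adjusted p = 0.000404 and 0.000196). mt-Nd1 took a higher share in AJ (0.21, edgeR adjusted p = 0.0262), a call that ended without AJ 1, 3 or 4, and mt-Cytb a lower one (-0.19, edgeR adjusted p = 0.0146), which ended without AJ 3. The AJ count of 5 was 3 without AJ 3. For gene and copies together it was 1 higher and 3 lower, against 17.1% and 4.95% of all genes, and the count of 4 was 2 without AJ 3.

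WSB had 1 higher and 3 lower, against 10.1% and 29.3% of all genes: the shares of mt-Nd1, mt-Nd5 and mt-Nd6 were lower, with log2 fold changes of -0.17, -0.22 and -0.17 (edgeR adjusted p = 0.0277, 0.000332 and 0.0138). The mt-Nd1 call there ended without WSB 3, 7 or 8. In WSB the counts with the copies were also 1 higher (mt-Atp6) and 3 lower, against 10% and 29.1% of all genes, and the count of 4 was 2 without WSB 3 or 8. B6 had 1 higher and 2 lower, against 13.7% and 11.9% of all genes, and the lower ones, mt-Nd1 (-0.18) and mt-Co1 (-0.14), did not hold: the count of 3 fell to 1 without B6 1, 3, 6 or 8, and to 0 with the copies added (edgeR, 4 with an unadjusted p under 0.05), against 14.6% and 9.44% of all genes. NOD had 1 higher and 1 lower (mt-Co3), against 14.3% and 6.52% of all genes, and the mt-Co3 call ended without any 1 of 24 libraries. strain-129 had 1 higher, mt-Co2, and 0 lower (edgeR), against 9.98% and 6.61% of all genes.

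**Figure D4:**
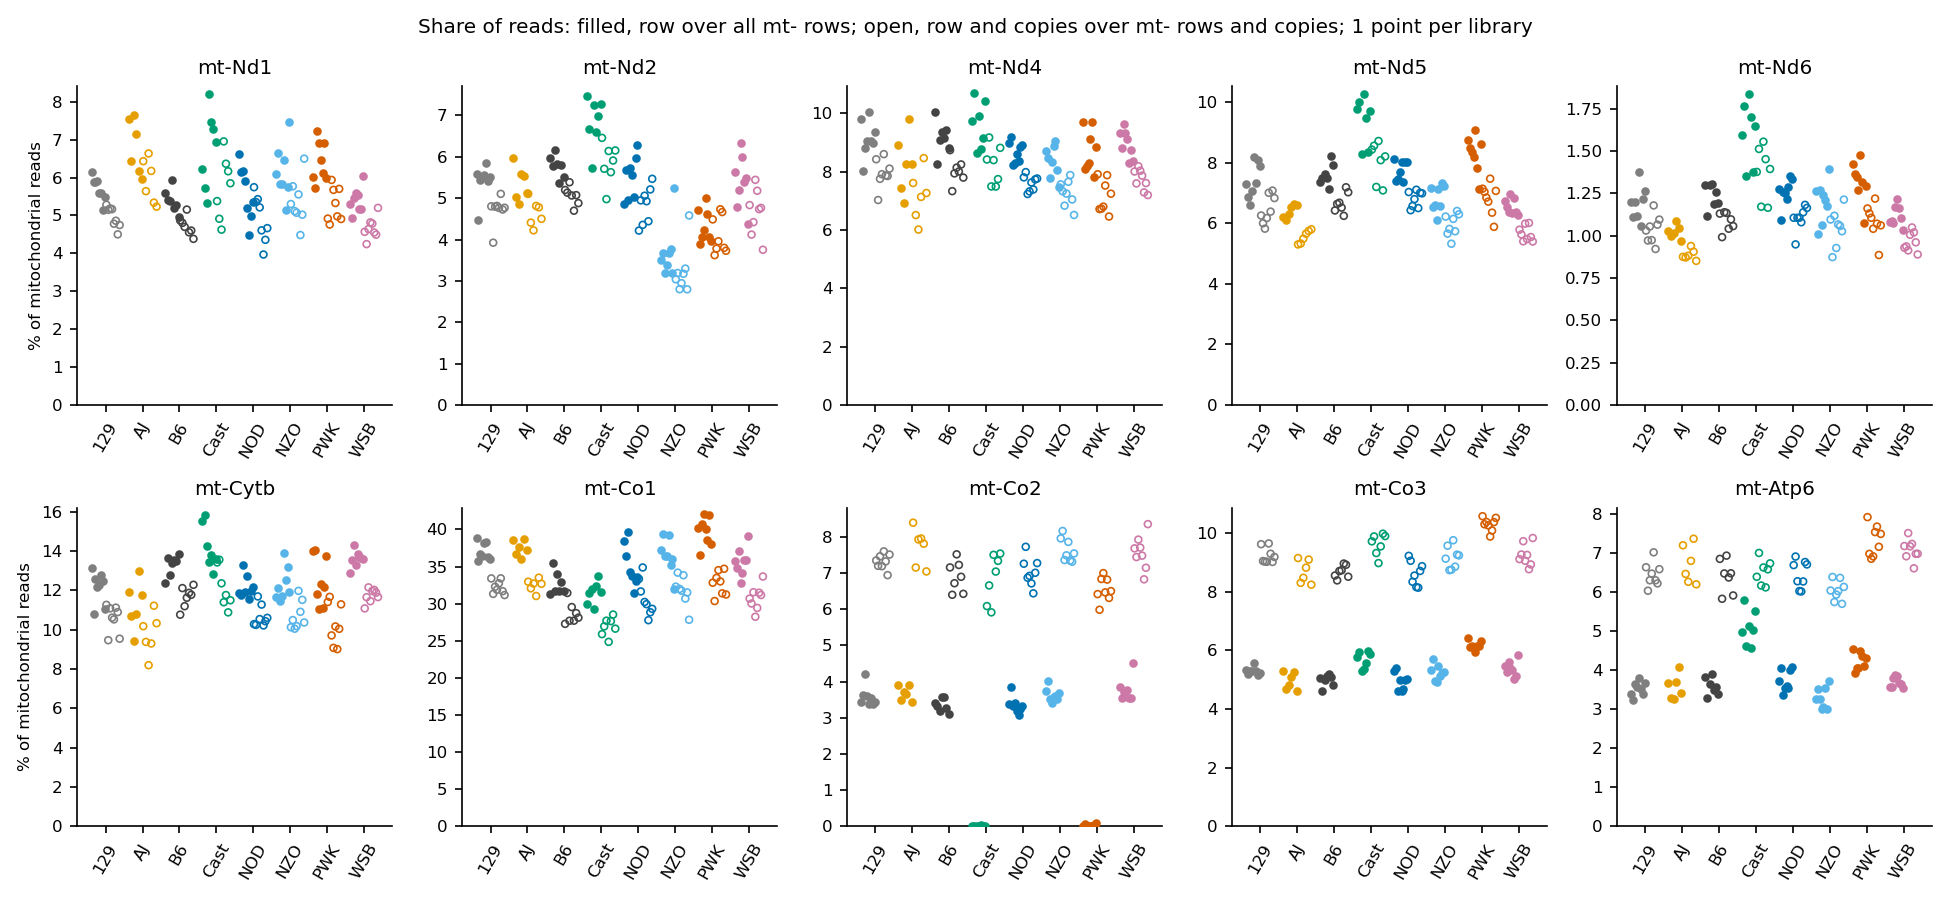
Share of mitochondrial reads (%) taken by each gene, by strain, with 1 point per library. Filled points are the gene's row over all mt- rows, and open points the row and its copies over all mt- rows and copies. mt-Nd2 is lowest in NZO in both settings (filled mean 3.71%), and the high filled points of mt-Atp6 in Cast (mean 5.09%) have open points within the range of the other strains.

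The 5 other mt- rows were mt-Nd3 and mt-Nd4l (complex I), mt-Atp8 (complex V) and the ribosomal RNAs mt-Rnr1 and mt-Rnr2. mt-Nd4l repeated the pattern of mt-Co2 in 1 strain: it had 10.2, 12.8 and 26.8 CPM as lowest, median and highest value in PWK, and means of 591 to 814 CPM in the other 7 strains (log2 fold change -5.64 ± 0.16). Its copy Gm10222 averaged 959 ± 134 CPM in PWK (SD, n = 8), and 269 to 407 CPM elsewhere, so that gene and copy together averaged 973 CPM in PWK and 860 to 1111 CPM elsewhere. As deposited, mt-Nd3 was higher in B6 (0.58 on the log2 scale) and WSB (0.42) and lower in AJ (-0.45) and PWK (-0.33). Its row held 35.3% (AJ) to 42.9% (B6) of the reads of mt-Nd3 and its copy Gm28438. Gene and copy together averaged 654 CPM in B6, the highest strain, and 373 CPM in PWK, the lowest. mt-Atp8 was lower in PWK (-0.86 ± 0.25). mt-Rnr2 was higher in NZO (0.58 ± 0.18) and lower in PWK (-0.73 ± 0.20), and mt-Rnr1 did not differ among strains (edgeR adjusted p = 0.123). Libraries were made from polyadenylated RNA, and the 2 ribosomal RNAs took from 3.54% to 17.2% of mt- reads in single libraries.

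All mt- rows together took 7.59 ± 1.04% of reads in Cast (SD, n = 7), 5.54 ± 0.63% in PWK (SD, n = 8), 5.93 ± 0.286% in AJ (SD, n = 6), and 6.41% to 6.93% in the other 5 strains. With the copies the figures were 8.89% in Cast, 6.74% in PWK and 6.84% in AJ. Library totals ran from 19.98 M to 69.2 M counts (median 30.4 M), and no gene of the 10 other than mt-Co2 had fewer than 14364 reads in any library. The lowest mt-Co2 value was 191 reads. Reads on Rn18s-rs5, a row of nuclear ribosomal RNA, averaged 2.55% in Cast, 10.9% in NZO and at most 5.81% elsewhere, and their part in the mitochondrial levels was not tested.

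Cell type markers also differed among strains, and their counts stand beside 30.8% of all genes higher and 28.8% lower in Cast, and 22.6% and 22.4% in WSB. The 10 hepatocyte markers were all detected, and their summed level ranged over 71667 to 110645 CPM in Cast libraries and averaged 89967 (NZO) to 151733 (AJ) CPM in the other strains. Of the 10, 2 were higher and 4 lower in Cast. Of 8 macrophage markers 7 were lower and 1 higher in Cast, with a summed level of 89.4 to 213.5 CPM in Cast libraries and strain means of 178 (WSB) to 497 (B6) CPM elsewhere. Lower in Cast were also 5 of 7 lymphocyte, 4 of 6 endothelial, 4 of 6 stellate and 4 of 5 red cell markers. Higher there were 1 of 6 endothelial, 1 of 6 stellate and 1 of 5 cholangiocyte markers. No marker was at 0 in every library of Cast. WSB had 5 of 8 macrophage and 5 of 7 lymphocyte markers lower, and 5 of 10 hepatocyte markers higher and 0 lower. B6, in the mean that Cast is set against, had 8 of 8 macrophage and 7 of 7 lymphocyte markers higher, against 19.4% of all genes. NZO had 7 of 8 and 5 of 7 of these higher and 0 lower, against 26.7% of all genes higher. Of hepatocyte markers NZO had 5 of 10 lower and 0 higher, against 19.5% of all genes lower. AJ had 5 of them higher and 0 lower, against 13.1% of all genes higher. The part of these cell types in the mitochondrial levels was not tested.

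The nuclear genes for the same complexes were taken from a list of 78 subunits. In Cast 28 were higher and 13 lower, against the 30.8% and 28.8% given for all genes, with a median log2 fold change of 0.08. Of 12 complex IV subunits 7 were higher and 0 lower in Cast (edgeR). Cox5b, a zinc-binding subunit of complex IV, averaged 105 ± 5.78 CPM in Cast (SD, n = 7), and was 0.53 higher on the log2 scale than in the other strains. Cox7c was also highest in Cast (0.42). Of 9 complex III subunits 4 were higher and 0 lower, among them Uqcrc1, a core protein of the complex, at 240 ± 37.1 CPM in Cast (0.43 higher). Uqcrc1 was lowest in PWK, at 132 ± 11.3 CPM (SD, n = 8), with a log2 fold change of -0.56. Of 36 complex I subunits 11 were higher and 9 lower in Cast, and of 17 complex V subunits 6 were higher and 2 lower, among them Atp5o (0.59) and Atp5b (0.35), the catalytic beta subunit. Of 4 complex II subunits, all of them nuclear, 0 were higher and 2 lower in Cast.

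NZO had 4 of the 78 higher and 34 lower (5.13% and 43.6%, against 26.7% and 19.5% of all genes). B6 had 3 higher and 23 lower (3.85% and 29.5%, against 19.4% and 14.7%). PWK had 18 higher and 12 lower (23.1% and 15.4%, against 22.5% and 22.7%). The largest ranges in the lists included Atp5g2, a gene for the proton-carrying c subunit of complex V, at 59.0 ± 4.604 CPM in PWK (SD, n = 8) and 3.30 ± 1.01 CPM in B6 (SD, n = 7), and the complex I subunit Ndufb4, at 38.0 CPM in PWK and 14.0 CPM in AJ. AJ had 6 higher and 9 lower, NOD 3 and 13, and strain-129 6 and 3. WSB had 42 higher and 3 lower, but this split depended on the scaling: it was 16 and 7 with library totals and 11 and 14 with totals without Rn18s-rs5 and mt- rows. All genes in WSB moved with these scalings: 22.6% were higher and 22.4% lower with TMM, 12.4% and 33.5% with library totals, and 11.01% and 39.2% with totals without Rn18s-rs5 and mt- rows. The subunits were 53.8% higher and 3.85% lower with TMM, 20.5% and 8.97% with library totals, and 14.1% and 17.9% with the last scaling. For strain-129 it was 20 and 2, and 14 and 3, under these scalings, and for B6 5 and 13, and 7 and 10. In Cast it was 37 and 11, and 33 and 12 (all genes 33.9% and 25.7%, and 32.1% and 27.4%). In NZO it was 2 and 53, and 4 and 32 (all genes 21.5% and 25.04%, and 29.0% and 15.4%). For AJ it was 6 and 11, and 5 and 16, for NOD 5 and 11, and 5 and 12, and for PWK 28 and 10, and 21 and 11.

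The machinery that expresses the mitochondrial genome was followed with 51 nuclear genes. In Cast 24 were higher and 10 lower (47.1% and 19.6%, against 30.8% and 28.8% of all genes), with a median log2 fold change of 0.20, and the split was 29 and 10 with library totals and 27 and 10 with totals without Rn18s-rs5 and mt- rows. Of 21 genes for RNA processing and stability 13 were higher and 1 lower in Cast. Lrpprc, whose protein stabilises mitochondrial messages, averaged 189 ± 27.6 CPM in Cast (SD, n = 7, log2 fold change 0.69) and 85.8 ± 9.78 CPM in PWK (SD, n = 8, -0.60). Fastkd1, of a family of mitochondrial RNA-binding proteins, was likewise highest in Cast (34.1 CPM, 0.72) and lowest in PWK (14.7 CPM, -0.66). Lactb2, a mitochondrial ribonuclease, showed the opposite order for Cast, which was lowest at 192 ± 111 CPM (SD, n = 7, -0.71), and was highest in NZO at 399 ± 103 CPM (SD, n = 8, 0.61).

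Of 14 genes for mitochondrial transcription and replication 6 were higher and 4 lower in Cast. Polrmt, the mitochondrial RNA polymerase, averaged 27.7 ± 7.50 CPM in Cast (SD, n = 7), and was 0.61 higher on the log2 scale. Ssbp1, the mitochondrial single-stranded DNA-binding protein, was 0.67 higher in Cast. Mterf3, known in mouse as a repressor of mitochondrial transcription, was highest in PWK at 70.3 ± 19.3 CPM (SD, n = 8, 2.04) and lowest in NZO at 12.1 ± 1.51 CPM (SD, n = 8, -0.74). Of 7 nuclear regulators of mitochondrial biogenesis 4 were higher and 0 lower in Cast (edgeR). Ppargc1a, the co-activator known for inducing mitochondrial genes, averaged 49.7 ± 40.3 CPM in Cast (SD, n = 7, log2 fold change 1.80, edgeR adjusted p = 5.71e-10), Ppargc1b 16.9 ± 10.04 CPM (1.09) and Esrra, a nuclear receptor they act through, 23.3 ± 11.4 CPM (0.74).

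Of 9 translation factors 1 was higher and 5 were lower in Cast, and 6 were higher and 2 lower in PWK. Mtrf1, a mitochondrial release factor, averaged 3.09 ± 0.585 CPM in Cast (SD, n = 7, -1.06) and 6.96 ± 0.828 CPM in PWK (SD, n = 8, 0.27). Gfm2, a factor for ribosome recycling, was lowest in PWK (29.3 CPM, -0.87) and highest in WSB (57.8 CPM, 0.43). Over all 51 genes, B6 had 1 higher and 18 lower (1.96% and 35.3%, against 19.4% and 14.7% of all genes). NZO had 7 and 16 (13.7% and 31.4%, against 26.7% and 19.5%) and PWK 16 and 12 (31.4% and 23.5%, against 22.5% and 22.7%). WSB had 15 and 8 (29.4% and 15.7%, against 22.6% and 22.4%) and AJ 3 and 7 (5.88% and 13.7%, against 13.1% and 11%). NOD had 4 and 5 (7.84% and 9.80%, against 16.7% and 11.6%) and strain-129 7 and 4 (13.7% and 7.84%, against 13.7% and 10.9%). The AJ count of 10 called was 5 without AJ 2, 3 or 4, and the strain-129 count of 11 was 7 without strain-129 library 6. Under library totals without and with the exclusion of Rn18s-rs5 and mt- rows, the WSB split was 7 and 11, and 4 and 17, that is 13.7% and 21.6%, and 7.84% and 33.3%, with the shares of all genes as given for the subunits. That of NZO was 1 and 28, and 7 and 6, where 21.5% of all genes were higher and 25.04% lower, and 29.0% and 15.4%. For AJ it was 1 and 5, and 1 and 10, for NOD 4 and 3 in both, and for strain-129 8 and 3 in both. The shares of all genes in these 3 strains are again those given for the subunits.

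**Figure D5:**
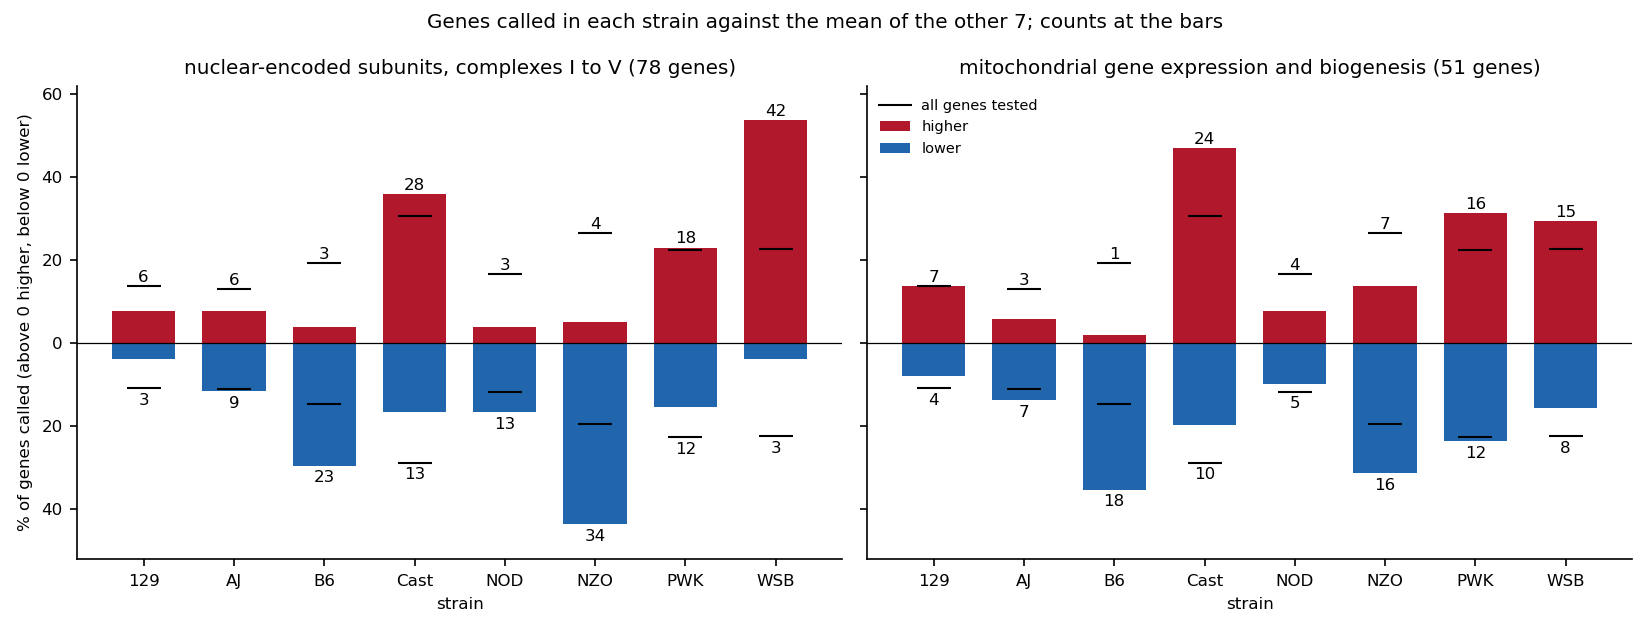
Percent of genes called higher (above 0) and lower (below 0) in each strain against the mean of the other 7, for 78 nuclear-encoded subunits (left) and 51 genes of mitochondrial gene expression and biogenesis (right), with counts at the bars. Black lines mark the percent of all genes tested. In Cast 24 of the 51 genes are higher, and in WSB 42 of the 78 subunits are.

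The genes whose level followed the summed level of the 10 most closely were sought among 9196 protein-coding nuclear genes of at least 5 mean CPM, by the SD over the 60 libraries of the log2 ratio of gene to sum. The median SD was 0.356, and the SD of the log2 sum itself was 0.198, so a gene of constant level would have that value. Among the lowest values were 0.149 for Cfl2, 0.164 for March6, 0.167 for Lmbrd1 and 0.167 for Atp5g3. Cfl2 averaged 43.7 CPM in Cast and 35.4 (WSB) to 41.2 (NZO) CPM in the other strains.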

How the data were processed

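RNA of frozen, pulverised liver was sequenced after selection of polyadenylated RNA, per the labels' protocols. The authors deposited estimated counts per gene (21.0% of values not whole, not normalized) and log2 variance-stabilised values of the same libraries. The submitters' processing notes name build GRCm38 and DESeq2. The sources used here do not give the aligner, counter, annotation release or strand setting. Of 61 labelled samples 60 had a column, and 1 column that matched no sample was not used.

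The estimated counts were rounded (whole counts had been assumed in the plan) and tested with edgeR 4.0.16 in R 4.3.3: quasi-likelihood fits with strain as the factor over all 60 libraries, filtering by filterByExpr, TMM scaling, and Benjamini-Hochberg adjustment over the 16165 genes tested in each contrast. Each strain was set against the unweighted mean of the other 7 on the log2 scale. Counts of libraries that were higher or lower are relative to the average of the other strain means. CPM in the text is per library total, whereas fold changes use TMM. For shares the same model took the summed mt- reads as library size. Nuclear copies were GENCODE M21 transcripts found with blastn 2.17.0 (at least 95% identity over at least 90 bases); their reads were added as an alternative.

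Other alternatives were DESeq2 1.42.0, limma 3.58.1 on the deposited log2 values, library totals with no TMM, totals without Rn18s-rs5 and mt- rows, no filter, an Xist covariate, a replicate block, other denominators and leaving out each library. The fits were also run on simulated data in which some genes were changed in Cast alone, and the outcome is not given here. All other genes were left unchanged, so that run cannot show how the calls depend on scaling. The 10 genes and all gene lists were chosen with earlier results of these data known. Named from each mitochondrial list were the 3 genes of at least 5 mean CPM with the largest range of strain means among those called among strains, and the 5 nuclear genes most like the sum of the 10, of which 1 is not reported here. The tests cover the spread between libraries only.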

Additional observations from a re-analysis of the deposited data

Results flagged for a closer look

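Each result over the libraries of 1 strain was checked for a single library far from the others, by its gap to the nearest library against the range of the strain (Dixon's 95% limit). It singled out 20 of 208 groups, where chance alone gives about 1 in 20 groups. Causes were not tested.

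B6 library 2 lay lowest in 7 of them. Its values were 4467 CPM for mt-Nd4 (nearest library 6282), 4050 CPM for mt-Nd5 (nearest 5134), 605 CPM for mt-Nd6 (nearest 852), 2495 CPM for mt-Co3 (nearest 3438) and 5112 CPM for mt-Co3 with its copy (nearest 6861). The sum of the 10 genes was 47794 CPM in that library, against 62386 ± 2997 CPM in the other 6 (SD, n = 6), and mt- rows held 5.40% of its reads. Its total of 30.8 M counts and its 3.88% of reads on Rn18s-rs5 were within the range of the other libraries.

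WSB library 5 lay highest for mt-Nd5 (5229 CPM, nearest 4298), mt-Atp6 (2907 CPM, nearest 2504) and the percent of reads on mt- rows (7.51%, nearest 6.57%). NZO library 6 lay highest for mt-Atp6, at 2936.5 CPM as deposited (nearest 2233) and 6048 CPM with its copy (nearest 4689). In PWK, library 9 had 59.996 CPM of mt-Co2, against 31.9 CPM in the nearest library.

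The share of mt-Nd2 in mt- reads was highest in NZO library 8 (5.26%, nearest 3.78%) and lowest in strain-129 library 2 (4.48%, nearest 5.40%). The share of mt-Co2 was highest in strain-129 library 3 (4.22%, nearest 3.63%), NOD library 2 (3.84%, nearest 3.40%) and WSB library 9 (4.52%, nearest 3.86%). mt-Co3 was highest in strain-129 library 6, both in level (4286 CPM, nearest 3705) and in share (5.55%, nearest 5.34%).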

How the results depend on the processing

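DESeq2, limma on the authors' variance-stabilised values and an Xist covariate ended no call of a named gene, and the number of genes called moved by over 1.5 times for B6 alone (2, against 1, by DESeq2 and with the Xist covariate). Library totals in place of TMM gave 2 genes called in B6, and totals without Rn18s-rs5 and mt- rows gave 3 in B6, 7 in AJ and 4 in WSB. Under library totals the nuclear subunits called were 22 in strain-129 and 23 in WSB, and the machinery genes 6 in AJ and 10 in B6. Without Rn18s-rs5 and mt- rows they were 17 in strain-129, 17 in B6 and 25 in WSB for subunits, and 10 in B6 and 13 in NZO for machinery. All genes moved under these scalings as well, by the shares given with the subunits.

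Adding the copies gave 0 genes called in level in strain-129, B6 and NOD and 1 in NZO, and 0 in share in strain-129, B6 and NOD (edgeR; unadjusted p under 0.05 for 0, 4 and 1 genes in share). It turned the sign of mt-Co2 in level in AJ (-0.024), B6 (-0.051), Cast (0.18) and NOD (-0.10), of mt-Co2 in share in B6 (-0.066) and NOD (-0.037), and of mt-Atp6 in share in Cast (-0.023). The share counts were 2 in strain-129 and 1 in NOD when the whole was the 10 genes or left out mt-Rnr1 and mt-Rnr2, and 1 in NOD with no filter on low counts. Beyond the construction of each setting, the cause was not tested.

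Same-numbered libraries of different strains correlated with a median r of 0.32 over 181 pairs (143 over 0.1, lowest -0.594), and libraries of other numbers with a median r of -0.115 over 1392 pairs (595 over 0.1). The labels do not say what the number marks and not every pair was over 0.1, so a replicate block was an alternative only. Whether these correlations follow the sex of the mice was not tested. With the replicate block the NOD share count was 1, and 2 single calls were lost (share of mt-Nd1 in B6 and of mt-Co3 in NOD).

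Leaving out each of the 60 libraries in turn gave 1 to 2 genes called in level in B6, 7 to 12 machinery genes in strain-129 and 5 to 12 in AJ. Share counts were 3 to 5 in AJ, 1 to 4 in B6 and 1 to 2 in NOD. The other counts of the rows as deposited stayed within 1.5 times of their value. With the copies added, the level count in WSB was 1 to 4 (1 without WSB 4 or 5) and in AJ 2 to 4 (2 without AJ 3), and the share count was 2 to 4 in AJ, 2 to 5 in WSB, 2 to 3 in NZO and 0 to 1 in B6. At 14364 reads or more per library, depth limits none of the genes but mt-Co2 (191 reads at the least), and library spread sets the precision.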
